A study of Homo sapiens with 19 samples.

Results

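The seed family of miR-130, miR-301 and miR-454 was followed through 18 small RNA libraries from the human colorectal epithelial cell line Caco-2 and its medium. Its 5 members, hsa-miR-130a-3p, hsa-miR-130b-3p, hsa-miR-301a-3p, hsa-miR-301b-3p and hsa-miR-454-3p (hsa- is dropped below), were taken by name from the 1043 mature miRNAs listed in these libraries, and a name missing from a library was counted as 0. The family was selected on its measured levels in these same libraries, so its own values are given as a description, with no test. All samples were from wild-type Caco-2 cells that were moved at about 80% confluence into medium free of serum and antibiotics for 24 h. Medium cleared of debris was split. S100 (3 libraries used) is the supernatant left after spins at 40000 xg and 100000 xg, P100 (4 libraries) is the pellet of the second spin, P40 (4 libraries) is the pellet of the first, total exRNA (4 libraries) is the extracellular RNA of the portion that had no high-speed spin, and cell lysate (3 libraries) is the RNA of the cells. S100 and total exRNA were precipitated before Trizol extraction and the other groups went into Trizol directly. Fraction and RNA preparation therefore cannot be told apart in any comparison of S100 or total exRNA with P40, P100 or lysate, whereas S100 and total exRNA share their preparation. A level here is a share of the miRNA counts of a library, not an amount of RNA, so that a higher share and less of everything else cannot be told apart. The labels do not say whether replicates are separate cultures, and any p-value below covers only the spread between these samples.

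miRNAs are short RNAs cut from hairpin precursors and loaded into Argonaute proteins, which they guide to messenger RNAs mainly through the seed, the bases near their 5′ end. miRNAs with the same seed are grouped as a family because they can pair with the same sites. In this family, miR-130a and miR-130b are known to repress PPARG, a regulator of fat cell formation and lipid metabolism, miR-130a is also known in endothelial cells for repressing the homeobox genes HOXA5 and GAX, and miR-130b for repressing TP53INP1 in liver cancer cells. miR-301a is known for activating NF-kB signalling through its repression of NKRF.

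The mature sequences of 4 of the 5 members were found in RefSeq (GRCh38.p14) and are shown because they define the family and because a pair of them is hard to tell apart by reads. Capitals mark the seed, bases 2 to 8, which is the same in all 4.
miR-130b-3p: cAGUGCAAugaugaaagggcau
miR-301a-3p: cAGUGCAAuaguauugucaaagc
miR-301b-3p: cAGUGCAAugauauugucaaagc
miR-454-3p: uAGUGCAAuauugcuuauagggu
These lie at chr22:21653354-21653375 (plus strand), chr17:59151149-59151171 (minus), chr22:21653025-21653047 (plus) and chr17:59137787-59137809 (minus) in the order shown. Aligned from their 5′ ends, miR-301a-3p and miR-301b-3p were identical at 21 of 23 positions (91.3%) and differed at A10G and G11A, written as the miR-301a-3p base, the position from the 5′ end and the miR-301b-3p base. The other pairs were identical at 45.5% to 59.1% of positions. How the authors assigned reads that match several miRNAs is not given in the sources used here, so the split between miR-301a-3p and miR-301b-3p is uncertain and their sum is given as well. miR-454-3p differs from miR-301a-3p at 10 and from miR-301b-3p at 11 of 23 positions, all of them outside the seed and the first base among them.

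By GENCODE release 29, the members come from 3 places in the genome. MIR301B (chr22:21652981-21653058) and MIR130B (chr22:21653304-21653385) are 245 bases apart on the plus strand, the first in an intron and the second in an exon of the non-coding transcript AP000553.1. MIR454 (chr17:59137758-59137872) and MIR301A (chr17:59151136-59151221) are 13263 bases apart on the minus strand, both in introns of SKA2, a gene of the kinetochore machinery. MIR130A (chr11:57641198-57641286, plus strand) is in an intron of AP000662.1, a sense-overlapping transcript. No other annotated miRNA hairpin was within 10000 bases of any of them. The other human miRNAs with this seed in RefSeq, miR-3666 and miR-4295, were not listed in any used library.

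The libraries held 10017 to 225290 counts (median 35940): 198878 to 225290 in S100, 10017 to 27027 in P100, 10490 to 26096 in P40, 34427 to 61622 in total exRNA and 37453 to 157051 in lysate. A miRNA with no count could still have been present at up to 13.3 CPM (counts scaled to library size) in the deepest library and 299 CPM in the shallowest, taking 3 counts as the floor, and such floors and all intervals below cover counting error only. S100 replicate 1 was left out: it held 48 counts over 28 miRNAs and none of a member, which allows a family share of up to 6.25%. The 4 P40 libraries stood apart from the rest in that each correlated less with its own group (mean Spearman 0.800 to 0.831 across miRNAs) than with its best other group (0.801 to 0.846). Epithelial miRNAs used as a check of the line (miR-200c-3p, miR-141-3p, miR-192-5p and miR-194-5p, all 4 detected in every group) summed to 19994 to 24863 CPM in S100, 25203 to 38567 in P100, 26779 to 33062 in P40, 34328 to 40107 in total exRNA and 53336 to 59582 in lysate. Blood cell miRNAs (miR-451a, miR-223-3p and miR-142-3p) summed to 53.4 to 104 CPM in S100, 200 to 935 in P100, 436 to 1249 in P40, 137 to 482 in total exRNA and 0 to 7.31 in lysate, with miR-451a at 0 in all 3 lysate libraries.

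Taken as 1 quantity, the family held several times more of the S100 libraries than of any other. It made up 3.17%, 3.96% and 3.39% of all counts in S100, against 0.294%, 0.267%, 0.352% and 0.280% in P100, 0.965%, 0.636%, 0.448% and 0.410% in P40, 0.520%, 0.511%, 0.645% and 0.970% in total exRNA, and 0.336%, 0.524% and 0.818% in lysate. No S100 library overlapped any other library, P100 lay below every P40 and total exRNA library and overlapped lysate, and P40, total exRNA and lysate overlapped with one another. In means the share was 3.51% ± 0.408 in S100, 0.298% ± 0.0375 in P100, 0.615% ± 0.253 in P40, 0.662% ± 0.215 in total exRNA and 0.560% ± 0.243 in lysate (SD, with n = 3 for S100 and lysate and n = 4 for the others). On CPM scaled by trimmed mean of M values (TMM, used for every CPM of a miRNA below), the summed family stood at 35670 ± 3308 CPM in S100 and 6315 ± 2140 CPM in lysate, a 5.65-fold difference (log2 2.50). The same log2 ratio was 3.50 for S100 against P100, 2.67 for S100 against P40 and 2.53 for S100 against total exRNA. Against lysate, the summed family was at 0.501 of the lysate level in P100, 0.888 in P40 and 0.977 in total exRNA.

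The make-up of the family differed between groups as well as its size. In S100, miR-130b-3p held 49.4% of family counts, miR-301a-3p 34.5%, miR-301b-3p 12.9%, miR-130a-3p 3.09% and miR-454-3p 0.0917% (means of 3 libraries). In lysate, miR-130b-3p held 85.2%, miR-301a-3p 5.65%, miR-301b-3p 1.80%, miR-130a-3p 1.67% and miR-454-3p 5.68%. So miR-301a-3p and miR-301b-3p together took a large part of the family in S100 and a small one in lysate, while miR-454-3p was nearly missing from the S100 family. miR-301a-3p held 18.9% of the family in P100, 6.19% in P40 and 23.2% in total exRNA, and miR-454-3p held 0.666%, 5.51% and 7.13% in the same groups.

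**Figure D1:**
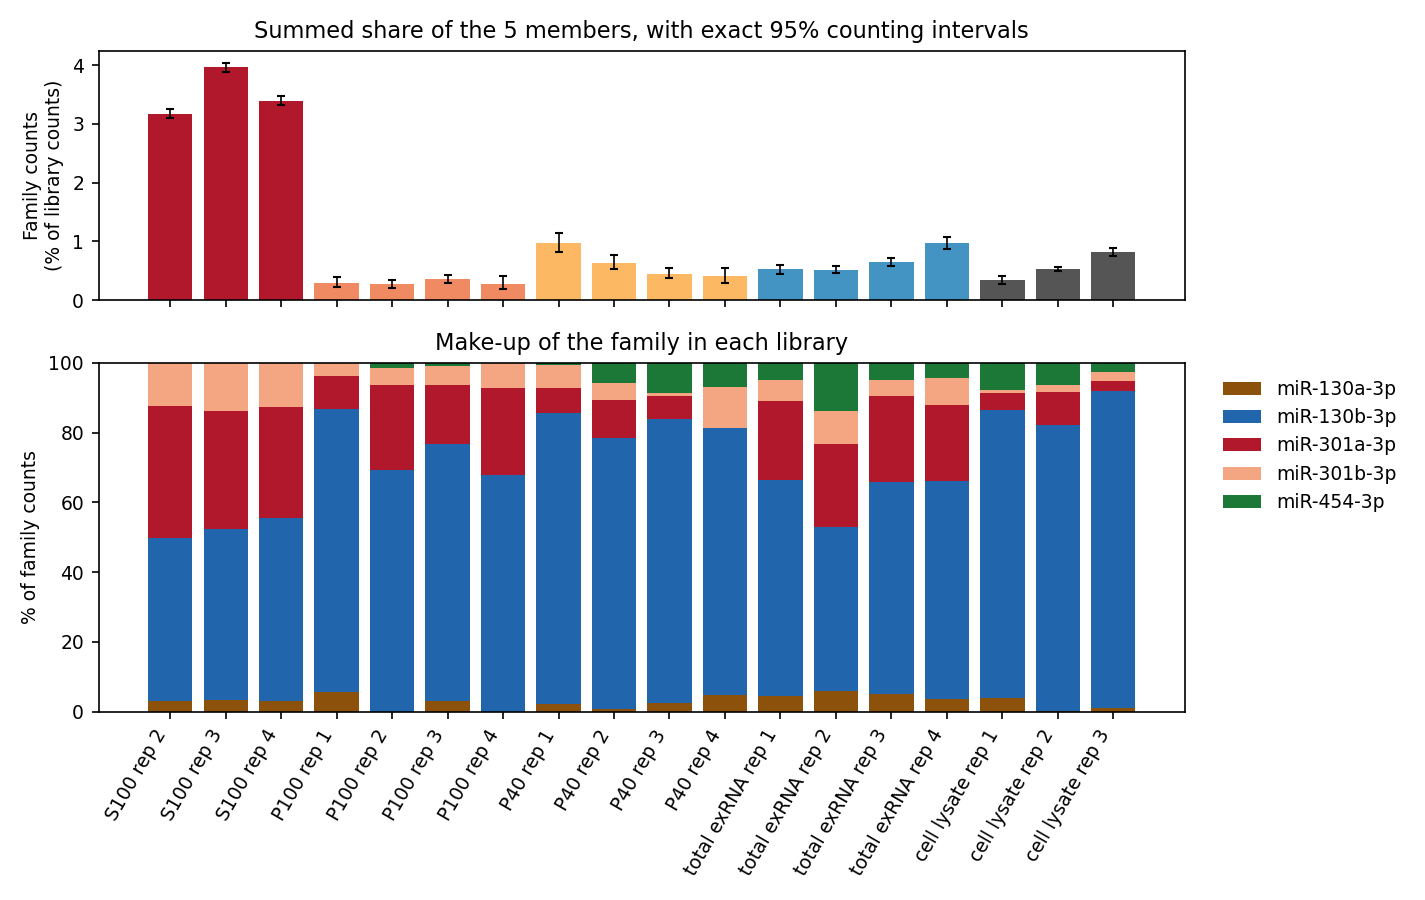
Upper panel: counts of the 5 members as a percent of all counts of each library, with exact (Clopper-Pearson) 95% counting intervals. Lower panel: the percent of family counts held by each member. The 3 S100 libraries sit between 3.17% and 3.96%, above all others, and show wide miR-301a-3p and miR-301b-3p segments and almost no miR-454-3p.

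Calls in a fit over all 227 miRNAs that passed a low-count filter are given next as a description, since the family was picked with these comparisons known, and nothing is read from them. All 5 members passed the filter. A call is an adjusted p below 0.05 (edgeR quasi-likelihood, Benjamini-Hochberg over the 227). In S100 against lysate 5 members were called (62.1% of all miRNAs tested were), 4 of them higher (32.2% of all) and 1 lower (30.0%). In P100 against lysate 2 were called (37.4%), both lower (20.7%), in P40 against lysate none (26.9%; 0 at an unadjusted p under 0.05 and 0 by DESeq2), and in total exRNA against lysate 3 (35.2%), all higher (18.9%). In S100 against P100 4 were called (59.9%), all higher (28.6%). In S100 against P40 5 were called (52.9%), 4 higher (25.1%) and 1 lower (27.8%), and in S100 against total exRNA 5 (63.4%), 4 higher (29.5%) and 1 lower (33.9%). In P100 against P40 1 was called (4.85%), lower (2.64%), in P40 against total exRNA 1 (11.5%), lower (5.73%), and in P100 against total exRNA 2 (27.8%), both lower (14.5%). Over the 10 comparisons, which share samples, 28 of 50 member values were called, beside 38.2% of all values. The median log2 fold change of the members in S100 was 4.03 against lysate, 3.74 against P100, 3.19 against P40 and 2.28 against total exRNA, and that of all 227 miRNAs was -0.04, -0.01, -0.30 and -0.34 in the same comparisons.

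miR-130b-3p was the most abundant member in every group. It stood at 14971, 17948 and 20152 CPM in S100, at 2512, 1828, 3026 and 1903 CPM in P100, and at 7233, 4988, 3244 and 2576 CPM in P40. It stood at 3194, 2162, 3513 and 5730 CPM in total exRNA and at 3584, 4940 and 7810 CPM in lysate. Every S100 library was above every other library, every P100 library was below every lysate library, and P40, total exRNA and lysate overlapped. Among the 227 miRNAs it ranked 12 to 16 by level in S100 and 28 to 45 in lysate. The fitted log2 fold change of miR-130b-3p in S100 was 1.70 ± 0.40 (SE) against lysate, the smallest of the 4 members that were higher there, 2.92 ± 0.39 against P100, 1.97 ± 0.37 against P40 and 2.28 ± 0.37 against total exRNA. Without lysate replicate 3, the library with its highest lysate value, the S100 value against lysate was 2.42, and without total exRNA replicate 4 that against total exRNA was 2.90. In P100 it was -1.23 ± 0.38 against lysate, and this call was lost without lysate replicate 3 (-0.71).

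miR-301a-3p had the least spread relative to its mean of the members in S100, at 12228 ± 219 CPM (SD, n = 3). Its level was 12056, 12475 and 12154 CPM in S100, 292, 638, 692 and 701 CPM in P100, and 624, 690, 273 and 0 CPM in P40 (0 counts in P40 replicate 4, which held 10490 in all). It was 1159, 1096, 1420 and 2002 CPM in total exRNA and 207, 555 and 255 CPM in lysate. S100 and total exRNA each stood clear of every lower group, while P100, P40 and lysate overlapped with one another. It ranked 18 to 20 of 227 in S100 and 122 to 156 in lysate. The fitted log2 fold change of miR-301a-3p in S100 was 5.09 ± 0.57 against lysate, 4.40 ± 0.51 against P100 and 3.11 ± 0.46 against total exRNA. Without lysate replicate 2, which has the highest of its lysate values, the first of these was 5.96. The median of all miRNAs moved by 0.31 in that fit. The log2 difference of total exRNA from lysate was 1.98 ± 0.49, or 2.58 once lysate replicate 2 was left out.

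miR-301a-3p was lower in both pellets than in total exRNA, with log2 fold changes of -1.29 ± 0.47 in P100 and -1.80 ± 0.49 in P40. The P40 call was lost in a fit of only those groups (-1.73) and with libraries thinned to equal depth (-1.44). The P100 call was lost without total exRNA replicate 1, 3 or 4, without any P100 replicate or any S100 replicate (-1.42 to -1.05 over these), and with thinned libraries (-0.67).

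miR-301b-3p, like its near-identical relative miR-301a-3p, was highest in S100, and its mean level was lower than that of miR-301a-3p in every group. It stood at 3960, 5025 and 4855 CPM in S100, at 117, 127, 216 and 200.3 CPM in P100, and at 561, 318, 34.1 and 390.4 CPM in P40. It stood at 309, 424, 255 and 685 CPM in total exRNA and at 34.5, 131 and 207 CPM in lysate (1, 18 and 13 counts). Every S100 library was above every other library, and every total exRNA library was above every lysate library, while P100, P40 and lysate overlapped. The log2 fold change of miR-301b-3p in S100 was 5.09 ± 0.65 against lysate (5.89 without lysate replicate 3), 4.81 ± 0.62 against P100, 3.91 ± 0.58 against P40 and 3.47 ± 0.53 against total exRNA (4.13 without total exRNA replicate 4). The median of all miRNAs moved by 0.31 in the S100 fit without lysate replicate 3 and by 0.33 in that without total exRNA replicate 4. In total exRNA, miR-301b-3p was at 1.62 ± 0.59 against lysate. That call was lost without total exRNA replicate 2 (1.53) or 4 (1.37), without lysate replicate 1 (1.36) or 2 (1.56), with the replicate number as a block (1.44), and with thinned libraries (1.73). In P40 against lysate it was 1.17 ± 0.64, not called, and 1.64 and called without P40 replicate 3.

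miR-301a-3p was the more counted of the miR-301 pair in every group. It held 72.5% of the summed counts of the pair in S100 (7762 counts beside 2942 of miR-301b-3p, exact 95% interval 71.7% to 73.4%), 78.2% in P100 (65.0% to 88.2%), 59.6% in P40 (45.1% to 73.0%), 77.2% in total exRNA (72.5% to 81.5%) and 75.4% in lysate (67.1% to 82.5%). The lower P40 share rests on 31 counts of miR-301a-3p and 21 of miR-301b-3p, and its interval overlaps those of S100, P100 and lysate and, narrowly, that of total exRNA. With both counted as 1 miRNA, the log2 fold change was 5.12 ± 0.49 in S100 and 1.92 ± 0.43 in total exRNA, both against lysate, and 3.20 ± 0.40 in S100 against total exRNA.

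miR-130a-3p was the scarcest of the members that were high in S100. It stood at 953, 1208 and 1154 CPM in S100 (188, 294 and 223 counts) and at 175, 0, 130 and 0 CPM in P100 (3, 0, 3 and 0 counts). It stood at 187, 53.1, 102 and 156 CPM in P40 (1 to 3 counts each), at 232, 278, 291 and 329 CPM in total exRNA, and at 172, 7.31 and 79.5 CPM in lysate (5, 1 and 5 counts). By observed values the S100 libraries were above all others and the total exRNA libraries above all the rest, and P100, P40 and lysate overlapped within a few counts. The P100 libraries with 0 counts had floors of 129 and 299 CPM, and the second of these lies within the total exRNA range. The log2 fold change of miR-130a-3p in S100 was 4.03 ± 0.76 against lysate, 3.74 ± 0.75 against P100, 3.19 ± 0.71 against P40 and 1.96 ± 0.59 against total exRNA. The first was 5.26 without lysate replicate 1 and the second 4.37 without P100 replicate 1. In total exRNA it was 2.07 ± 0.75 against lysate, and 3.00 without lysate replicate 1. That call was lost without lysate replicate 2 (1.25), lysate replicate 3 (2.35), total exRNA replicate 3 (2.04) or total exRNA replicate 4 (2.07), and in a fit of only the 2 groups (2.19).

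miR-454-3p went the other way. It stood at 35.5, 20.5 and 41.4 CPM in S100 (7, 5 and 8 counts) and at 0, 42.5, 43.2 and 0 CPM in P100 (0, 1, 1 and 0 counts). It stood at 62.4, 371, 341 and 234 CPM in P40 (1, 7, 10 and 3 counts). Its level was 258, 643, 291 and 411 CPM in total exRNA, and 345, 380.0 and 239 CPM in lysate (10, 52 and 15 counts). By observed values S100 and P100 overlapped and lay below every P40, total exRNA and lysate library, and those 3 groups overlapped with one another. The lowest P40 value is 1 count, and the P100 libraries with 0 counts had floors of 166 and 299 CPM. At this depth the separation from P40 is therefore not resolved. Of all miRNAs tested, 30.0% were called lower in S100 against lysate and 20.7% in P100 against lysate. miR-454-3p ranked 213 to 215 of 227 in S100 and 137 to 153 in lysate. The log2 fold change of miR-454-3p in S100 was -3.25 ± 0.61 against lysate (-2.66 without S100 replicate 3), -2.95 ± 0.63 against P40 (-2.33 without P40 replicate 3) and -3.58 ± 0.59 against total exRNA. Against P100 it was 0.26 ± 1.00, not called.

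The P100 level of miR-454-3p rests on 2 counts among 78348, beside 20 among 642660 in S100, 21 among 70031 in P40, 85 among 183648 in total exRNA and 77 among 260500 in lysate. As a ratio of these shares, P100 was at 0.0864 of lysate (95% counting interval 0.0103 to 0.323), 0.0851 of P40 (0.00968 to 0.348) and 0.0552 of total exRNA (0.00657 to 0.205). S100 was at 0.105 of lysate (0.0610 to 0.174) and at 1.22 of P100 (0.296 to 10.8). The fitted log2 values of miR-454-3p in P100 were -3.51 ± 0.83 against lysate, -3.21 ± 0.87 against P40 and -3.84 ± 0.80 against total exRNA. The call against P40 was lost without P40 replicate 2 (-2.996) or 3 (-2.85), without any P100 replicate (-3.64 to -2.85), without any S100 replicate (-3.09 to -3.08), without lysate replicate 2 or 3 (both -3.09), and with no low-count filter (-3.19).

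**Figure D2:**
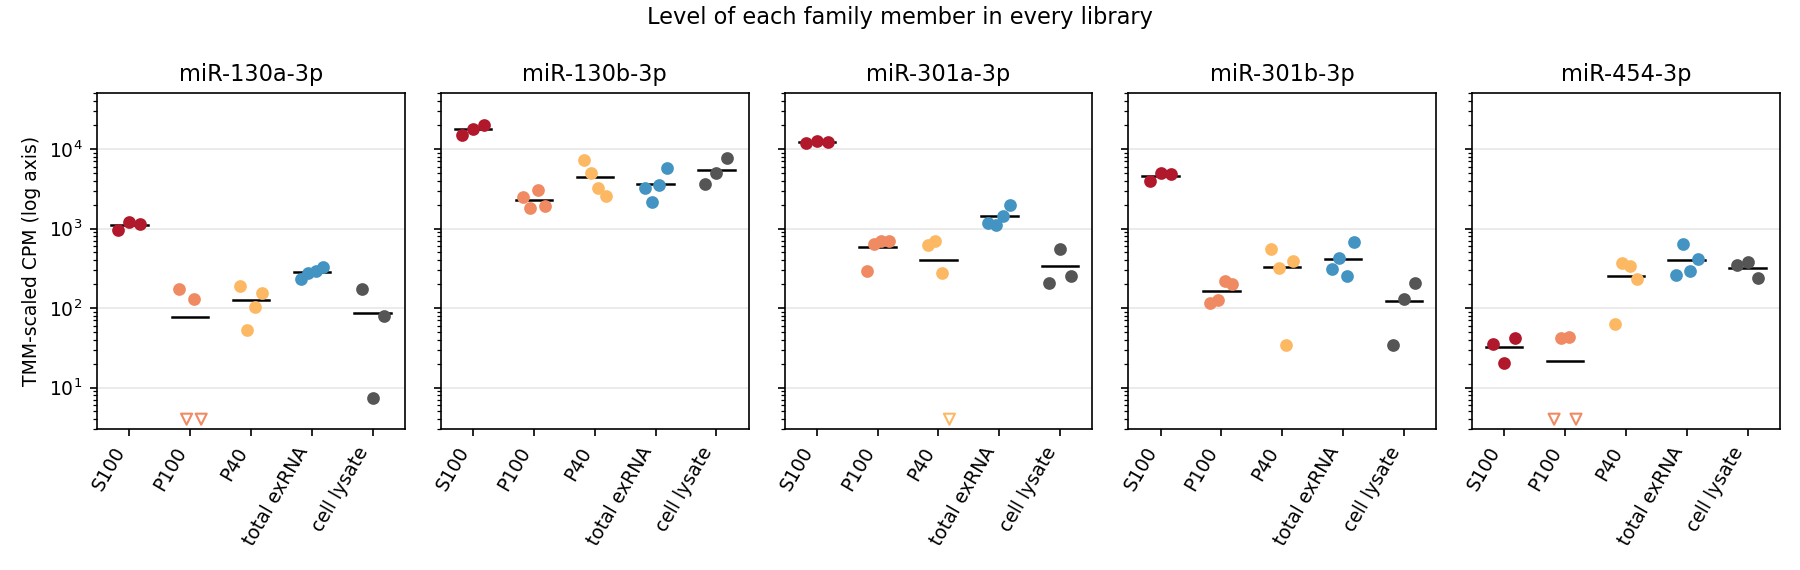
TMM-scaled CPM (log axis) of each member in each library, with points for libraries, black lines for group means and open triangles at the foot for libraries with 0 counts. In 4 panels the S100 points lie above all others, while miR-454-3p has its S100 and P100 points below those of P40, total exRNA and lysate. The lowest P40 point of miR-454-3p is 1 count.

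Ordered by mean level, S100 came first for 4 members and did not overlap the next group in any of them. Of all 227 miRNAs, 35.7% had every S100 library above every lysate library, 33.9% above every P100 library, 27.3% above every P40 library and 33.9% above every total exRNA library. Such shares were not counted for libraries lying below another group or for comparisons without S100, so nothing is read from those separations. For miR-130a-3p and miR-301a-3p total exRNA came second and was clear of the third group. For miR-301b-3p the groups below S100 overlapped each with the next, and for miR-130b-3p likewise, from lysate down through P40 and total exRNA to P100. For miR-454-3p the order was total exRNA, lysate, P40, S100 and P100. The only gap, between P40 and S100, rests on 1 count in P40 replicate 1. The summed blood cell miRNAs (53.4 to 104 CPM in S100) were lowest of the extracellular groups in S100, but this sum is mostly miR-451a. Mean miR-451a was 61.7 CPM in S100, 584 in P100, 875 in P40 and 224 in total exRNA. Mean miR-142-3p was 5.11 CPM in S100, 0 in P100 and P40 and 22.8 in total exRNA. Mean miR-223-3p was 5.80 CPM in S100, 10.8 in P100, 39.0 in P40 and 3.65 in total exRNA, and both rest on few counts. The epithelial miRNAs did not move as 1 group: mean miR-200c-3p was 3679 CPM in S100, 24816 in P100, 21144 in P40 and 26523 in total exRNA, while mean miR-192-5p was 16149 CPM in S100, 5389 in P100, 6234 in P40 and 4795 in total exRNA. Mean miR-141-3p and miR-194-5p in S100, at 1756 and 1049 CPM, lay between their P100 means, at 808 and 704 CPM, and their total exRNA means, at 3802 and 2552 CPM. The part of these marker miRNAs in the results was not tested.

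**Figure D3:**
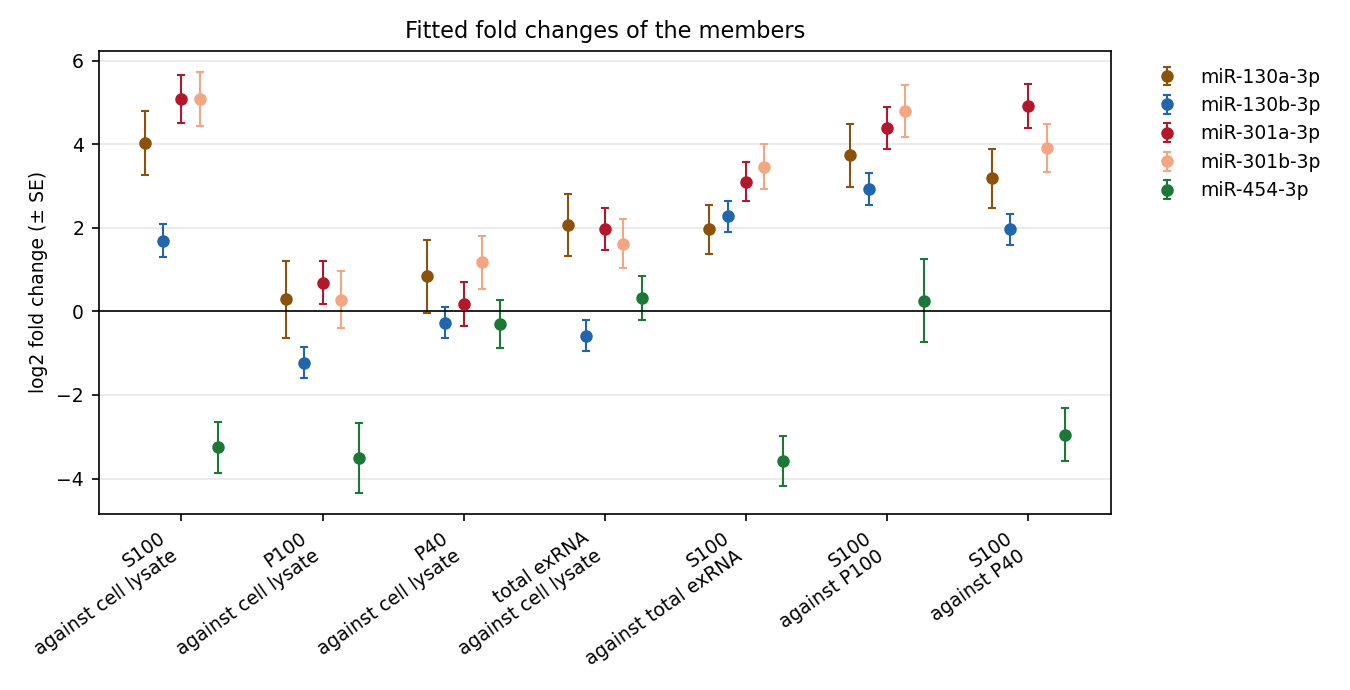
Fitted log2 fold change of each member (points) with its standard error (bars), the first-named group over the second. In S100 against lysate, 4 members lie between 1.70 and 5.09 and miR-454-3p at -3.25, while in P40 against lysate the 5 lie between -0.30 and 1.17.

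Members of 1 locus did not share 1 pattern in every case. miR-301a-3p and miR-454-3p, both from introns of SKA2, had log2 fold changes of 5.09 and -3.25 in S100 against lysate. miR-130b-3p and miR-301b-3p, from neighbouring hairpins on chromosome 22, had 1.70 and 5.09. miR-301a-3p and miR-301b-3p, close in sequence but from different chromosomes, both had 5.09, although the split of reads between them is uncertain. In S100 against P40 they had 4.91 and 3.91. Across the 18 libraries, Pearson's r of log2 CPM between members was 0.61 to 0.79 among the 4 that were high in S100 and -0.33 to -0.08 between miR-454-3p and these. Without the 3 S100 libraries the same values were 0.09 to 0.34 and 0.06 to 0.38 over 15 libraries. All these points share libraries and depths, and the low-count members are noisy.

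The opposite arms of the hairpins were not used in choosing the family. miR-130b-5p passed the filter. It had 142, 131 and 104 CPM in S100, 117, 42.5, 43.2 and 100.2 CPM in P100, 312, 0, 137 and 312 CPM in P40, 0, 190, 0 and 0 CPM in total exRNA (13 counts, all in replicate 2), and 103, 387 and 79.5 CPM in lysate. These ranges overlapped in all comparisons. It was called in none of the 10 comparisons by edgeR's quasi-likelihood test, with 0 of 10 at an unadjusted p under 0.05, and in 0 by DESeq2, which gave no adjusted p in 1 of them. In S100 against lysate its log2 fold change was -0.71 ± 0.84 (adjusted p = 0.488, Benjamini-Hochberg over 227 miRNAs), with miR-130b-3p at 1.70 ± 0.40 in the same fit. The difference between the arms was not tested. Without total exRNA replicate 2, total exRNA has no count of miR-130b-5p and 4 comparisons with that group were called, at fitted values from -6.84 to 6.59 that depend on the prior count.

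As a share of both arms, miR-130b-5p was 0.939%, 0.727% and 0.511% in the S100 libraries, against 2.80%, 7.27% and 1.01% in the lysate libraries. Most counts of both arms are of miR-130b-3p, a member chosen with its level known. A low 5p share in S100 partly restates the high level of miR-130b-3p there, so it is a description with no test. Pooled, it was 80 counts beside 11214 of the 3p arm in S100 (0.708%, exact 95% interval 0.562% to 0.881%) and 61 beside 1271 in lysate (4.58%, 3.52% to 5.84%), and 53 of those 61 came from lysate replicate 2. The pooled share was 2.78% in P100 (0.908% to 6.36%), 3.70% in P40 (1.99% to 6.25%) and 1.89% in total exRNA (1.01% to 3.21%).

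The arms of the miR-454 hairpin were closer to each other in number. miR-454-5p, which did not pass the low-count filter, had 16 counts in S100, 7 in P100, 8 in P40, 9 in total exRNA and 20 in lysate. Its share of both arms was 44.4% in S100 (27.9% to 61.9%), 77.8% in P100 (39.99% to 97.2%), 27.6% in P40 (12.7% to 47.2%), 9.57% in total exRNA (4.47% to 17.4%) and 20.6% in lysate (13.1% to 30.0%). As a ratio of shares of the library, miR-454-5p in S100 was at 0.324 of lysate (0.157 to 0.659), beside 0.105 (0.0610 to 0.174) for miR-454-3p. These intervals pool libraries. Of the miR-454-5p counts, 17 of 20 in lysate and 10 of 16 in S100 came from replicate 2. Its libraries overlapped, at 50.7, 16.4 and 10.4 CPM in S100 and 68.9, 124 and 15.9 CPM in lysate. With no low-count filter its log2 fold change was -0.77 ± 1.00 (adjusted p = 0.593, edgeR quasi-likelihood test over 1043 miRNAs). Of the remaining 5p arms, miR-130a-5p was not listed, miR-301a-5p had 1 count, in total exRNA, and miR-301b-5p had 2 counts, in S100, beside 7762 and 2942 counts of miR-301a-3p and miR-301b-3p in S100.

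**Figure D4:**
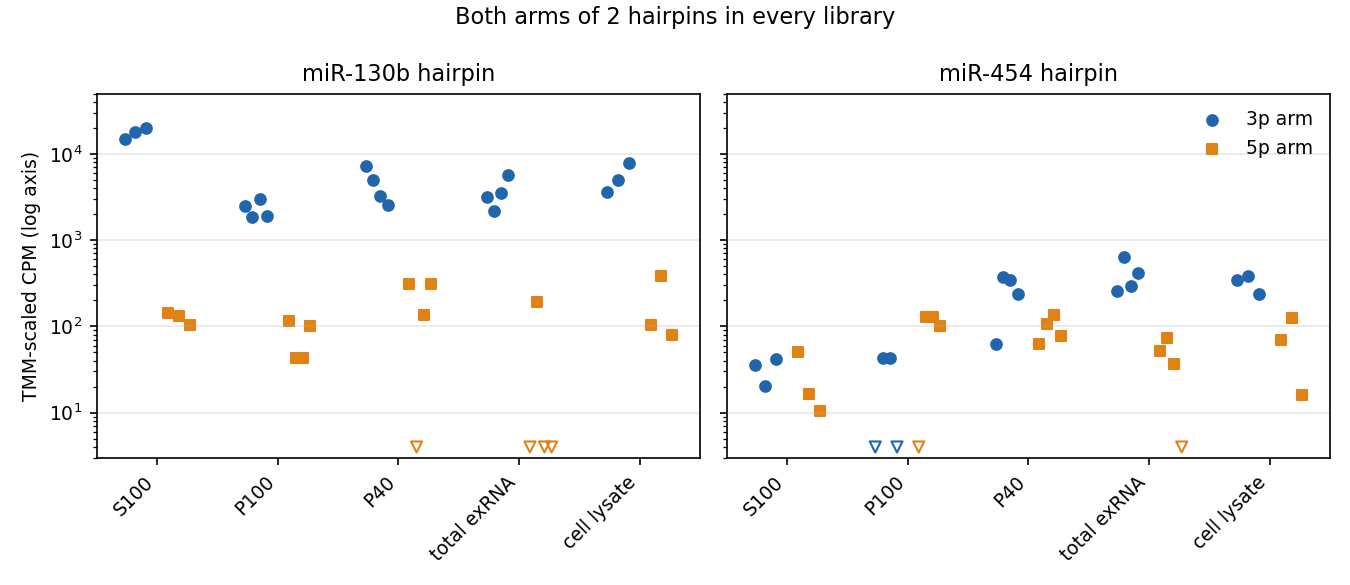
TMM-scaled CPM (log axis) of the 3p arm (circles) and 5p arm (squares) of the miR-130b and miR-454 hairpins in each library, with open triangles for 0 counts. The 3p arm of miR-130b is above its 5p arm in all 18 libraries, while the arms of miR-454 overlap in S100, P100 and P40.

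miRNAs that carry bases 3 to 8 of the same seed, shifted within their own first 9 bases, were miR-19a-3p and miR-19b-3p, members of the miR-17-92 cluster, and miR-1973, which was too low to be tested. miR-19a-3p stood at 1095, 1286 and 1356 CPM in S100, 1519, 4123, 4150 and 4408 CPM in P100, 1497, 1592, 2424 and 2654 CPM in P40, 3915, 8153, 2475 and 4085 CPM in total exRNA, and 861, 2148 and 2784 CPM in lysate. All S100 values were below all P100, P40 and total exRNA values and overlapped those of lysate. The share of all miRNAs lying below in this way was not counted. By edgeR's quasi-likelihood test miR-19a-3p was lower in S100, with a log2 fold change of -1.90 ± 0.44 against total exRNA (adjusted p = 0.000671) and -1.51 ± 0.44 against P100 (adjusted p = 0.00548). The second call was lost without S100 replicate 2 (-1.17) and with no low-count filter (-0.83).

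miR-19a-3p was also higher in total exRNA than in lysate by 1.26 ± 0.43 (adjusted p = 0.0310 by the same edgeR test), in libraries that overlapped. That call was lost without total exRNA replicate 2 (0.78), without lysate replicate 1 (0.97) or 2 (1.30), and in a fit of only the 2 groups (1.41). Uncalled values of miR-19a-3p that became calls were P100 against lysate (0.86 ± 0.43, and 1.10 without P100 replicate 1, 1.38 without lysate replicate 3 or 1.03 by DESeq2) and P40 against total exRNA (-1.19 ± 0.40, and -1.41 to -1.19 without total exRNA replicate 3, P100 replicate 1, lysate replicate 1 or lysate replicate 3). The P40 value was called as well with the replicate block (-1.21), with no low-count filter (-1.42), with S100 replicate 1 kept (-1.29) and by DESeq2 (-1.29). miR-19b-3p, at 11600 to 19940 CPM in S100, 8297 to 20017 in P100, 7430 to 18035 in P40, 11449 to 34730 in total exRNA and 7822 to 16416 in lysate, passed the test in none of the 10 comparisons, with 1 of 10 at an unadjusted p under 0.05 and 1 called by DESeq2, both total exRNA against lysate (0.87 ± 0.39). That value was also called without total exRNA replicate 3 (1.08) or lysate replicate 3 (1.28), with library-size scaling (1.15), with no low-count filter (1.07) and with thinned libraries (1.10). In S100 against lysate it was 0.43 ± 0.41 (adjusted p = 0.381), and called without lysate replicate 3 (1.12) and with no low-count filter (1.09). The median of all miRNAs in S100 against lysate moved by 0.31 and 0.69 in these settings. With no low-count filter miR-19b-3p was also called in S100 against P40 (0.98, beside 0.29 ± 0.38 with the filter), where that median moved by 0.65.

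Among 220 other tested miRNAs averaging 100 CPM or more, the profile most like that of the summed family over the 18 libraries was that of miR-210-3p, a miRNA known to be induced by hypoxia (Pearson's r = 0.91 on log2 CPM), followed by miR-1228-5p (0.91) and miR-338-3p (0.88). These values rest on the same 18 libraries and largely on the 3 of S100. Mean miR-210-3p was 31684 CPM in S100, 1590 in P100, 4052 in P40, 2186 in total exRNA and 4339 in lysate. Mean miR-1228-5p was 629 CPM in S100, 5.30 in lysate and 0 in P100, P40 and total exRNA. Its r values, here and for single members below, thus set S100 against libraries at or near 0. For single members the 3 closest were miR-574-5p (0.77), miR-185-5p (0.75) and miR-23a-3p (0.75) for miR-130a-3p, and miR-210-3p (0.93), miR-378a-3p (0.85) and miR-1228-5p (0.84) for miR-130b-3p. They were miR-1228-5p (0.78), miR-378a-5p (0.75) and miR-103a-2-5p (0.75) for miR-301a-3p, and miR-1228-5p (0.86), miR-338-3p (0.86) and miR-106b-5p (0.83) for miR-301b-3p. For miR-454-3p they were miR-205-5p (0.86), miR-371a-5p (0.75) and miR-30e-3p (0.74). miR-205-5p averaged 2547 CPM in S100, 3346 in P100, 6954 in P40, 8686 in total exRNA and 9127 in lysate.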

How the data were processed

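Small RNA was sequenced from 5 Caco-2 groups with the RealSeq-AC kit and single-end reads of 50 bases, per the labels' protocols. Raw counts of mature miRNAs were deposited, made by the authors with cutadapt 1.16, FastQC and Bowtie2 on GRCh38, per the submitters' processing notes. The alignment settings, the handling of multi-mapping reads and the miRNA release are not given in the sources used here. The files list only miRNAs with at least 1 count. Counts were fitted in R 4.3.3 with edgeR 4.0.16: TMM scaling, filterByExpr (minimum count 10, minimum total 15), 1 robust quasi-likelihood model over 18 libraries and 5 groups, and 227 of 1043 miRNAs tested. Common biological coefficient of variation was 0.419. The fit was tested on simulated data. Batch numbers in the labels equal replicate numbers and so pair samples. Deviations of same-numbered samples from their group means correlated at -0.03 on average (32 pairs), those of different numbers at 0.01 (97). Alternatives were library-size scaling, no filter, the replicate block, fits of the 2 groups alone, thinning to 10017 counts, summing the miR-301 pair, leaving out each library, keeping S100 replicate 1, and DESeq2 1.42.0. The members and lists were chosen with earlier results of these data known. Named in full were the members and their 5p arms. Named by likeness were the 3 miRNAs with the highest Pearson's r of log2 CPM (prior count 2) for the family sum and for each member.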

Additional observations from a re-analysis of the deposited data

Results flagged for a closer look

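Gaps between 1 library and the rest of its group were examined by 48 Dixon tests, and 5 were large enough to list. The tests covered several quantities in total exRNA, P40 and P100, with 4 libraries each. Chance gives about 1 in 20 tests, but these share libraries and counts and are not independent. miR-301a-3p stood at 292 CPM in P100 replicate 1, against 638 to 701 CPM in the other P100 libraries. miR-19a-3p stood at 1519 CPM in the same library, against 4123 to 4408 CPM in the others. miR-130b-5p stood at 190 CPM in total exRNA replicate 2 and at 0 in the other total exRNA libraries. In the same library miR-130b-3p held 47.0% of family counts, against 60.9% to 62.6% in the others, and miR-454-3p held 14.0%, against 4.49% to 5.05%.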

How the results depend on the processing

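Under 26 alternative settings, 18 of which left out 1 library each, no member value that was called changed direction, and the summed family in S100 stayed above each other group. Of 1245 recomputed member values, 37 lost a call and 2 gained one. All 37 losses fell among the 9 calls in comparisons without S100 (223 recomputed values), and none among the 19 called S100 results (478 recomputed values). A member that failed the filter in a setting has no value there and is not counted as a loss. Among the S100 calls this held for miR-130a-3p and miR-454-3p with thinned libraries, and for miR-454-3p in the fit of only S100 and P40. With no low-count filter the log2 ratio of the summed family in S100 was 3.16 against lysate, 4.16 against P100, 3.31 against P40 and 3.00 against total exRNA, while the median of all miRNAs in these comparisons moved by 0.69, 0.65, 0.65 and 0.45 on the log2 scale. The cause was not tested. Leaving out 1 library at a time, the family ratio in S100 ranged from 2.48 to 3.16 against lysate (highest without lysate replicate 3), from 3.40 to 3.83 against P100 and from 2.48 to 3.11 against total exRNA (highest without total exRNA replicate 4). The median of all miRNAs moved by 0.31 against lysate without lysate replicate 3 and by 0.33 against total exRNA without total exRNA replicate 4. Member calls numbered 28 in the main model, 27 with the replicate block, where the 1 member call lost was miR-301b-3p in total exRNA against lysate (1.44), and 22 to 29 in the other settings that kept the miR-301 pair apart, thinning aside. The block also gave a call for miR-19a-3p in P40 against total exRNA (-1.21). With the miR-301 pair counted as 1 miRNA, 23 of 40 values were called, 7 for the pair and 16 for the other 3 members. Thinned to 10017 counts a library, only 3 members passed the filter, and 14 of their 30 values were called, against 17 of the same 30 at full depth. Calls over all miRNAs numbered 11 to 144 a comparison in the main model, 11 to 143 with the pair summed and 5 to 91 with thinned libraries. The share of all miRNAs called was not worked out for the alternative settings, so nothing is read from their counts of member calls. Library-size scaling moved the median of all miRNAs by up to 0.35. At the depth of the pellets, levels of miR-130a-3p and miR-454-3p rest on 0 to 10 counts a library.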

Other observations

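The first base of the mature miRNA, which the family rule did not use, was C in miR-130b-3p, miR-301a-3p and miR-301b-3p and U in miR-454-3p. This split was looked at after the values were seen and has no test. Among the other tested miRNAs in RefSeq, 28 begin with C, and in S100 against lysate 6 of them were called higher and 15 lower (median log2 fold change -1.17). Of 85 that begin with U, 21 were called higher and 23 lower (median -0.02). Of 59 that begin with A, 24 were called higher and 14 lower (median 0.24), and of 23 that begin with G, 10 were called higher and 7 lower (median 0.74). The 3 members that begin with C were chosen with their S100 levels known, and miR-130a-3p had no sequence to place it. Any part of the first base was not tested.

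miR-1973, an offset-seed relative that was too low to be tested, had 3, 2, 8 and 2 counts in the P100 libraries, 5 counts in P40 replicate 1 and 0 in the other P40 libraries, 2 counts in lysate replicate 3, and 0 counts in all S100 and total exRNA libraries used.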
